A study of Homo sapiens with 6 samples.

Results

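The nuclear-encoded genes of the mitochondrial respiratory chain and ATP synthase were compared between A375 cells with high and low aldehyde dehydrogenase (ALDH) activity. A375 is an established human melanoma cell line, grown here in high-glucose DMEM with FCS and L-glutamine. The cells were stained with Aldefluor, a substrate that turns fluorescent where ALDH enzymes convert it, and the 5% with the highest signal (ALDH_High) and the 5% with the lowest signal (ALDH_Low) were collected by flow sorting. Each group held 3 RNA-seq libraries made with a stranded mRNA kit (TruSeq). The labels name no genotype change and no drug in either group, and both groups come from 1 cell line. The labels do not say whether libraries of a group came from separate cultures or sorts, so p-values measure only the spread between these libraries, which may be technical. A gene was a member if it was annotated as protein-coding and its symbol began with NDUF, UQCR, ATP5 or a subunit name from COX4 to COX8, or was SDHA, SDHB, SDHC, SDHD or CYC1. That rule gave 100 of the 57914 genes: 46 named for complex I or assigned to it, 4 for complex II, 10 for complex III, 19 for complex IV and 21 for complex V. Apart from structural subunits, the names brought in 8 NDUFAF assembly factors, tissue-restricted paralogs, readthrough genes and the ATP synthase inhibitor ATP5IF1. NDUFA4 and its paralog NDUFA4L2 are named for complex I but are counted here with complex IV, where the NDUFA4 protein sits.

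Complexes I and II pass electrons from NADH and succinate to ubiquinone, complex III passes them on to cytochrome c, and complex IV hands them to oxygen. Complexes I, III and IV pump protons across the inner mitochondrial membrane, and complex V (ATP synthase) uses the return flow to make ATP. Most subunits are encoded in the nucleus and imported, while a small set of membrane-embedded core subunits of complexes I, III, IV and V is encoded by mitochondrial DNA. In melanoma, cells differ in how far they rely on this pathway or on glycolysis, and the coactivator PPARGC1A (PGC-1alpha) is a known driver of the pathway in some melanomas.

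Total counts per library lay between 26692868 and 37830603, and the members took between 1.04% and 1.29% of them. ALDH1A3, an ALDH enzyme known as a source of Aldefluor signal, was higher in all 3 ALDH_High libraries (log2 fold change 1.32, SE 0.19, adjusted p = 0.000734, edgeR quasi-likelihood test). Among melanoma markers, SOX10 was abundant at 669.9 CPM (counts scaled to the library total) in ALDH_High and 193.6 CPM in ALDH_Low, while the pigment genes MLANA and TYR did not exceed 3 counts in any library. Summed over 9 melanoma markers, the level was 987 to 1290 TPM in ALDH_High and 300 to 374 in ALDH_Low, but MITF went the other way, at 13.0 ± 0.944 CPM against 24.7 ± 6.62 (adjusted p = 0.00667, edgeR). The 5 white blood cell markers summed to 3.51 to 7.90 TPM and 1.94 to 2.77, with PTPRC and CD3E at no more than 4 and 2 counts; LYZ was higher in ALDH_High and CD14 lower, at 0.224 ± 0.118 CPM against 0.913 ± 0.252 (adjusted p = 0.0142, edgeR). The 4 fibroblast markers summed to 7.91 to 10.6 and 4.99 to 5.12 TPM, the 2 keratinocyte markers to 16.9 to 22.9 and 11.9 to 16.2, and the 3 endothelial markers to 0.198 to 0.504 and 0.208 to 0.509. The keratinocyte sum follows KRT14, while KRT5 was lower in ALDH_High, at 0.133 ± 0.0488 CPM against 1.72 ± 0.941 (adjusted p = 0.000898, edgeR). The part of other cell types in the results below was not tested. The table also lists 154 pseudogenes whose names match the rule, and reads shared between a gene and such a copy cannot be assigned with certainty. Whether the counting used the strand is not given in the sources used here, so the same holds for members overlapped by a gene on the opposite strand, such as NDUFAF3 (DALRD3), COX4I1 (EMC8) and ATP5PB (WDR77).

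The members that passed the test below were ATP5IF1, ATP5F1A, COX7B2 and COX6B2. The bases just before their starts are shown, with those of COX7B and COX6B1, the broadly expressed counterparts of the paralogs, so that each low paralog can be read against its partner. The sequences are RefSeq's on GRCh38.p14, written 5′ to 3′ on the strand of the gene and limited to bases outside the gene as GENCODE 44 annotates it. Capitals mark matches, on either strand, to the motifs GCGCATGCG (NRF1), CCGGAAG (ETS family, which includes GABPA), CACGTG (E-box) and AAGATGGCG (YY1), which do not overlap one another here. The regions are chr1:28235874-28236108 on the plus strand for ATP5IF1, chr18:46104335-46104477 on the minus strand for ATP5F1A, chr4:46909246-46909495 on the minus strand for COX7B2, chrX:77899218-77899439 on the plus strand for COX7B, chr19:55354720-55354969 on the minus strand for COX6B2 and chr19:35648073-35648322 on the plus strand for COX6B1.
ATP5IF1: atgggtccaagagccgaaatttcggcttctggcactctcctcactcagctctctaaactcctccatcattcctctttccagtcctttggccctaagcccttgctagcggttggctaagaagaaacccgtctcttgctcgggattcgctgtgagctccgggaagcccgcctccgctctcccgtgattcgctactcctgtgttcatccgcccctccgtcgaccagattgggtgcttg
ATP5F1A: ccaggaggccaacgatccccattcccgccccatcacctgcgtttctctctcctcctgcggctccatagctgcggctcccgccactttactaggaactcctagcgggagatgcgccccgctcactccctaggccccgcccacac
COX7B2: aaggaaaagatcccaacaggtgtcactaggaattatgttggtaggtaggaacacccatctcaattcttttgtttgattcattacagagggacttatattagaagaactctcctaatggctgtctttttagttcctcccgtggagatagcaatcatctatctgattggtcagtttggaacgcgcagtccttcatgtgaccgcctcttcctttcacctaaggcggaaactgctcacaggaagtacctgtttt
COX7B: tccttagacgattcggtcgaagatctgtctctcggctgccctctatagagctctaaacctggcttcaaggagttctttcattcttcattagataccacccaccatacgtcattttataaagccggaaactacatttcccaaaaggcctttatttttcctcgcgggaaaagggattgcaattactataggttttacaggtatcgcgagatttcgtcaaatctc
COX6B2: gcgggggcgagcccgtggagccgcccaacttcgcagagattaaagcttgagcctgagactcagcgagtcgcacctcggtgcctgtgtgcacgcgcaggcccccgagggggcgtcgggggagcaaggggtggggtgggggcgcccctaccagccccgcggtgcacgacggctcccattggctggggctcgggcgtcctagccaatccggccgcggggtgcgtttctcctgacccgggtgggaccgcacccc
COX6B1: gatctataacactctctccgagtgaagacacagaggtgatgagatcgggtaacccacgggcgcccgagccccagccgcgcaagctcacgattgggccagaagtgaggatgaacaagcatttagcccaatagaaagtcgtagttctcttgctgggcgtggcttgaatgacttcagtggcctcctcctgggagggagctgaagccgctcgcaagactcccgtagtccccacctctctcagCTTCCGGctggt
Of the 6 stretches, only that of COX6B1 held a motif, 1 ETS match close to its start. The COX7B2 stretch held 5 CpG dinucleotides in 250 bases, and the COX6B2 stretch of the same length held 26. A stretch of 250 bases before the start was found in RefSeq for 78 of the 100 genes. The ETS letters occurred in 23.1% of those 78 and in 8.52% of all 35116 promoters of that length. That background was not chosen to match the members in gene type, expression or CpG number. For the NRF1 letters the shares were 11.5% and 1.64%, and for the full palindrome, which is 1 base longer, 3.85% and 1.03%. The E-box was found in 8.97% and 6.34%, and the YY1 letters in 1.28% and 0.652%. The median number of CpG dinucleotides was 18 in the members and 11 in all promoters. The 18 genes with an ETS match came from all 5 complexes and did not include any of the 4 genes that passed the test.

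Across the 2 sorted fractions, few of the nuclear-encoded respiratory chain genes differed in RNA. Of 93 members that could be tested, 4 passed an adjusted p of 0.05 (edgeR quasi-likelihood test, Benjamini-Hochberg adjustment over 17047 genes), which is 4.30% against a background of 20.6% of all genes. All 4 were lower in ALDH_High: ATP5IF1 and ATP5F1A of complex V and the complex IV paralogs COX7B2 and COX6B2. The paralogs passed the filter on low counts only through ALDH_Low, so their direction was fixed by that filter and only ATP5IF1 and ATP5F1A bear on it. No member passed in the higher direction, which 10.8% of all genes did, and 9.83% passed in the lower one. An unadjusted p below 0.05 (edgeR) was found for 7 of the 93 members, against 5508 of all 17047 genes. Of these 7 members NDUFAF5 and ATP5F1E were higher, and DESeq2's Wald test called these 2 as well. A lower RNA level in a sorted fraction can mean less RNA per cell or fewer cells with the RNA, and these cannot be told apart in bulk libraries. Counting error is small for protein-coding genes whose mean reached 10 CPM, and of these 2 of 90 members (2.22%) and 19.4% of all genes passed.

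The precision was high enough to bound most changes. The 95% interval of the log2 fold change stayed within 1 of 0 for 89 of the 93 tested members and within 0.5 of 0 for 63, with a median SE of 0.13. Libraries of the 2 groups did not overlap for 10 members that were lower in ALDH_High and for 1 that was higher, 11.8% of the members against 37.8% of all genes. In simulated data of 16524 genes with the depths of these libraries, 50 genes that were not low in counts were changed at each fold size. The test found 84% of those changed 2-fold, 28% of those changed 1.5-fold and 2% of those changed 1.2-fold. Far fewer genes were changed there than passed in the real data, which makes the adjusted threshold stricter, so these shares do not carry over.

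**Figure D1:**
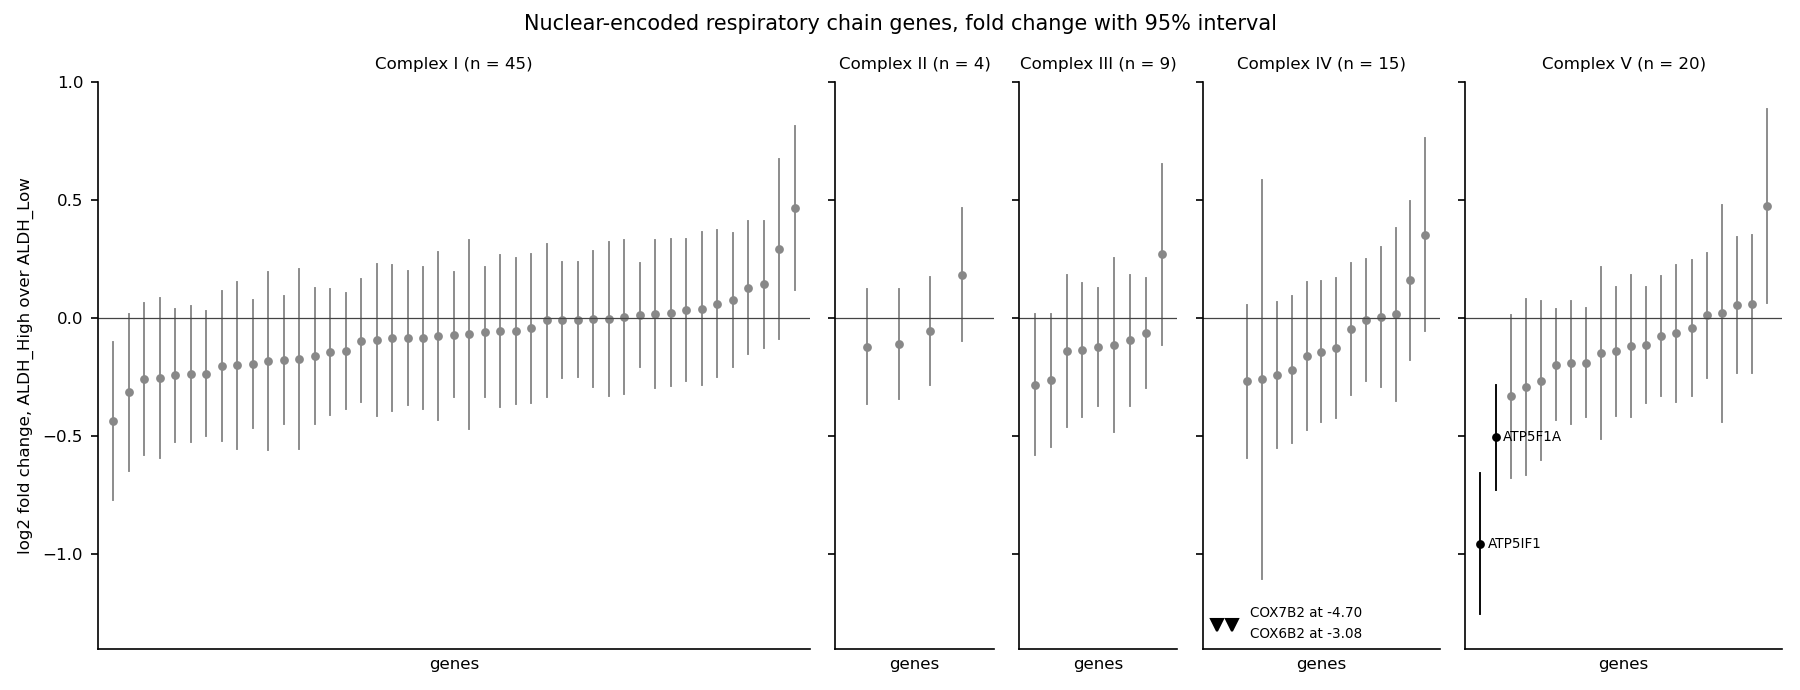
The vertical axis is the log2 fold change of ALDH_High over ALDH_Low and each point is 1 tested gene with its 95% interval, ordered within its complex; black points passed the adjusted p of 0.05 and triangles lie beyond the axis. Most points lie between -0.5 and 0.5, and the 4 black ones are all below 0, 2 in complex IV and 2 in complex V. The 2 in complex IV passed the filter on low counts only through ALDH_Low, which fixed their direction.

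A small common offset was present on the default scale, but its sign turned when the gene length trend was removed, and its size varied with single libraries. The median log2 fold change of the members was -0.095, against -0.013 for all genes, and 70 of 93 were below 0, but with the length trend of each library taken out the median was 0.070 and 32 of 93 were below 0. Without ALDH_High replicate 3 the median was -0.034 and 53 of 93 were below 0, and without ALDH_High replicate 1 the median was -0.16 and 77 were below 0. The members are short: 72 of the 93 fall in the shortest 20% of tested genes, by the length that the deposited counts and TPM values imply. Over all genes the median log2 fold change went from -0.14 in the shortest 20% to 0.11 in the longest 20%, and the 72 members among the shortest had a median of -0.091. The 4 calls did not depend on it, since ATP5IF1, ATP5F1A, COX7B2 and COX6B2 also passed with the length trend removed.

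Complex I, the NADH dehydrogenase, showed no gene past the threshold in either direction in edgeR's test. Of its genes 2 had an unadjusted p below 0.05, NDUFAF3 and NDUFAF5, where 5508 of all 17047 genes did. DESeq2 called NDUFAF5 and the low readthrough gene NDUFC2-KCTD14. All 45 genes tested had a log2 fold change between -0.44 and 0.47, with a median of -0.071. That median was 0.089 with the length trend removed and 0.014 without ALDH_High replicate 3, and it was -0.14 without ALDH_High replicate 1. The core subunits carry the flavin and iron-sulfur clusters. NDUFV1, which holds the flavin that takes electrons from NADH, had 195 ± 11.9 TPM in ALDH_High and 189 ± 14.8 TPM in ALDH_Low (SD, n = 3; TPM is a level scaled for transcript length). NDUFS1, the large iron-sulfur subunit of the same arm, had 46.0 ± 3.37 and 44 ± 0.927 TPM. NDUFS7 and NDUFS8, which carry the clusters next to ubiquinone, had log2 fold changes of -0.095 and -0.25, and NDUFV2, beside the flavin, had 0.13. The groups overlapped for all 7 core subunits.

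The 30 accessory subunits of complex I surround this core and stabilise it. Their log2 fold changes ran from -0.32 (NDUFB10) to 0.29 (NDUFA11), and the median was -0.073. The most abundant were NDUFB9, with 474 ± 41.2 TPM in ALDH_High and 487 ± 32.4 in ALDH_Low, and NDUFB7, with 426 ± 69.4 and 469 ± 46.2. NDUFV3 was the least abundant, with 21.7 ± 0.866 and 22.4 ± 0.452 TPM. Of these 30 genes only NDUFS4 had groups that did not overlap, with 43.4, 44.9 and 44.2 CPM in ALDH_High and 47.9, 45.1 and 57.0 in ALDH_Low, and its adjusted p was 0.353. NDUFA11 had 1 high library in ALDH_High, at 171 CPM, beside 118 and 106, and its ALDH_Low libraries read 111, 98.1 and 114. It did not pass in the main fit, but it passed as higher in ALDH_High with the length trend removed.

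The assembly factors of complex I, which build the complex without staying in it, held the lowest and the highest value within it. NDUFAF5, a factor that acts on the NDUFS7 subunit, read 20.3, 16.4 and 21.9 CPM in ALDH_High and 15.5, 12.7 and 14.2 in ALDH_Low, with no overlap. Its log2 fold change was 0.47 (SE 0.16), with an adjusted p of 0.0613 in edgeR's test, just outside the threshold. It passed with DESeq2, with the length trend removed and without ALDH_High replicate 2, and its adjusted p rose to 0.197 without ALDH_Low replicate 2. NDUFAF3 read 66.1, 54.3 and 43.0 CPM in ALDH_High and 75.0, 73.7 and 72.2 in ALDH_Low, a log2 fold change of -0.44 (SE 0.15) with an adjusted p of 0.0677. It passed with upper-quartile scaling, with no filter on low counts and without ALDH_High replicate 1 (-0.58), while without ALDH_High replicate 3 it was at -0.28 (adjusted p = 0.222). The other 6 factors had log2 fold changes from -0.26 (NDUFAF6) to 0.039 (NDUFAF7). The readthrough gene NDUFC2-KCTD14, with 0, 0 and 1 counts in ALDH_High and 11, 0 and 25 in ALDH_Low, was left out by edgeR's filter on low counts. Without that filter, and by DESeq2's Wald test, it was called lower in ALDH_High, although 1 ALDH_Low library was at 0.

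Complex II, succinate dehydrogenase, is also an enzyme of the citrate cycle and has no mitochondrially encoded subunit. None of its 4 genes passed, by edgeR or by DESeq2, none had an unadjusted p below 0.05, and all 4 intervals stayed within 0.5 of 0. SDHC, one of the membrane anchors, was the most abundant, with 292 ± 25.4 TPM in ALDH_High and 250 ± 20.7 in ALDH_Low, and a log2 fold change of 0.18 (interval -0.10 to 0.46). SDHB, the iron-sulfur subunit, had 222 ± 4.69 and 232 ± 2.29 TPM. SDHA, the flavoprotein that oxidises succinate, had 79.1 ± 2.90 and 83.3 ± 0.813 TPM, and the anchor SDHD had 96.2 ± 8.22 and 96.5 ± 6.51.

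Complex III, the cytochrome bc1 complex, had no call among 9 tested genes in edgeR or DESeq2, and none at an unadjusted p below 0.05, with log2 fold changes from -0.28 (UQCR10) to 0.27 (UQCR11). Its catalytic nuclear subunits were close in both groups. CYC1, which is cytochrome c1, had 275 ± 20.6 TPM in ALDH_High and 293 ± 19.4 in ALDH_Low. UQCRFS1, the Rieske iron-sulfur protein, had 53.8 ± 0.236 and 54.4 ± 2.68. UQCRH, the hinge protein that binds cytochrome c1, was among the most abundant members at 991 ± 45.1 and 1043 ± 57.2 TPM, and UQCRQ followed at 523 ± 71.3 and 559 ± 15.8. UQCRC2, a core protein, had no overlap between groups, at 96.8, 120 and 132 CPM in ALDH_High and 139, 140 and 139 in ALDH_Low, and an adjusted p of 0.183. UQCRHL, a near-identical copy of UQCRH, did not exceed 6 counts.

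Complex IV, cytochrome c oxidase, held the largest fold differences of the set, both in paralogs at very low levels. Its 11 structural subunits had log2 fold changes from -0.27 (COX7C) to 0.35 (NDUFA4), and none passed. COX4I1, the broadly expressed subunit 4, had 745 ± 52.2 TPM in ALDH_High and 789 ± 64.1 in ALDH_Low, COX6A1 had 712 ± 80.1 and 772 ± 43.7, and COX8A had 744 ± 59.5 and 746 ± 29.5. NDUFA4 read 196, 153 and 109 CPM in ALDH_High and 125, 110 and 124 in ALDH_Low, so its groups overlapped, and its adjusted p was 0.223. Without ALDH_High replicate 3 its log2 fold change was 0.56 and it passed (adjusted p = 0.0273, edgeR), and without ALDH_High replicate 1 it was 0.15 and did not. COX7A2L, which is known for joining complexes III and IV in supercomplexes, had a log2 fold change of -0.0086.

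COX7B2 is a paralog of the subunit COX7B with expression mainly in testis in normal tissues. Its gene lies on the minus strand at chr4:46734827-46909245. It had 0, 1 and 3 counts in the ALDH_High libraries and 66, 22 and 31 in the ALDH_Low libraries. All ALDH_High libraries were thus at or under 3 counts and all ALDH_Low libraries were above them. By counts the ratio of ALDH_Low to ALDH_High was 29.1, with a counting interval of 11.1 to 108. The fitted log2 fold change of -4.70 (SE 0.67, adjusted p = 0.000835, edgeR quasi-likelihood test) depends on the prior count used for values near 0. COX7B itself read 115, 108 and 91.8 CPM in ALDH_High and 110, 115 and 146 in ALDH_Low, with an adjusted p of 0.272. Of the summed TPM of the pair, COX7B2 made up 3.21%, 1.34% and 1.58% in ALDH_Low and 0%, 0.0539% and 0.194% in ALDH_High.

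COX6B2, the paralog of COX6B1 known from testis, lay at a still lower mean TPM, and its direction too was fixed by the filter on low counts. Its gene lies on the minus strand at chr19:55349306-55354719. The counts were 4, 2 and 3 in ALDH_High and 53, 21 and 12 in ALDH_Low, with no overlap. The ratio of ALDH_Low to ALDH_High by counts was 9.33, with a counting interval of 4.69 to 21.1, and the fitted log2 fold change was -3.08 (SE 0.60, adjusted p = 0.00506, edgeR quasi-likelihood test). It was not called by limma on log2(TPM + 1) with no filter (adjusted p = 0.136), and with at least 10 counts required in every library neither paralog was tested. COX6B1 read 181, 162 and 143 CPM in ALDH_High and 166, 164 and 208 in ALDH_Low, and COX6B2 made up 0.0191 ± 0.00982% of the pair's TPM in ALDH_High and 0.152 ± 0.0991% in ALDH_Low.

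The other tissue-restricted paralogs of complex IV were silent at this depth. COX4I2, COX6A2, COX7A1 and COX8C had 0 counts in all 6 libraries, where a count of 0 allows up to 0.118 CPM in the shallowest library. NDUFA4L2, a hypoxia-associated paralog of NDUFA4, was low, with 32, 74 and 39 counts in ALDH_High and 42, 62 and 65 in ALDH_Low. It made up 0.729 ± 0.268% of the TPM of the pair in ALDH_High and 1.09 ± 0.410% in ALDH_Low (exact permutation test, two-sided, p = 0.3, adjusted p = 0.4 over 4 shares; the smallest p that 3 against 3 libraries allow is 0.1).

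Complex V, the ATP synthase, held the other pair of calls. ATP5IF1 encodes the inhibitor that binds the F1 part and blocks ATP hydrolysis when the proton gradient fails. Its gene lies on the plus strand at chr1:28236109-28246906. It read 41.6, 41.0 and 34.9 CPM in ALDH_High and 71.3, 68.7 and 88.1 in ALDH_Low. The groups were far apart, with the highest ALDH_High library well below the lowest ALDH_Low library. It was 1.94-fold lower in ALDH_High (log2 fold change -0.96, SE 0.13, adjusted p = 0.000746, edgeR quasi-likelihood test), and it passed in all 16 alternative fits.

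ATP5F1A encodes alpha, the F1 subunit that alternates with the catalytic beta subunit in a ring. Its gene lies on the minus strand at chr18:46080248-46104334. It read 512, 476 and 493 CPM in ALDH_High and 671, 698 and 734 in ALDH_Low. The spread within each group was small beside the gap between the groups. It was lower in ALDH_High with a log2 fold change of -0.51 (SE 0.099, adjusted p = 0.00518, edgeR quasi-likelihood test) and passed in the same 16 alternatives. In the main fit the alpha gene was the only one of 78 structural subunits over all complexes to pass (1.28%, against 20.6% of all genes). Some alternatives called further structural subunits, among them ATP5F1E and NDUFA11 as higher and ATP5MC1 and UQCRQ as lower in ALDH_High.

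The rest of the F1 part did not follow alpha past the threshold. ATP5F1B, the catalytic beta subunit and the most abundant member, had 1015 ± 17.9 TPM in ALDH_High and 1120 ± 43.4 in ALDH_Low, with no overlap between the groups, a log2 fold change of -0.19 and an adjusted p of 0.242. Alpha and beta are present in equal number in the enzyme. The alpha gene's share of their summed TPM was 24.9%, 25.8% and 26.3% in ALDH_High and 30.2%, 29.5% and 30.4% in ALDH_Low, a share chosen after the values were seen and given without a test. ATP5F1C (gamma) had 195 ± 5.75 and 216 ± 6.99 TPM, with no overlap and an adjusted p of 0.233, and ATP5F1D (delta) had a log2 fold change of 0.055. ATP5F1E (epsilon) read 412, 334 and 228 CPM in ALDH_High and 241, 218 and 243 in ALDH_Low. Its groups overlapped through ALDH_High replicate 3, and its log2 fold change of 0.47 (SE 0.19) had an adjusted p of 0.104. It passed without that library (0.69, adjusted p = 0.0079), with no filter on low counts and by DESeq2's Wald test. Without ALDH_High replicate 1 the value was 0.28, and over the alternatives the adjusted p ranged from 0.00319 to 0.253.

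The stalk and membrane parts of ATP synthase showed no call. The 9 stalk and membrane genes had log2 fold changes from -0.33 (ATP5ME) to 0.018 (ATP5MD). ATP5MF, a small membrane subunit, was the third most abundant member, with 849 ± 128 TPM in ALDH_High and 913 ± 94.9 in ALDH_Low. The c ring, which rotates as protons pass, is encoded by ATP5MC1, ATP5MC2 and ATP5MC3, whose mature proteins are identical. ATP5MC1 supplied 19.9 ± 1.53% of their TPM in ALDH_High and 22.0 ± 1.01% in ALDH_Low (exact permutation p = 0.1, adjusted p = 0.2). ATP5MC2 supplied 49.5 ± 1.97% and 49.1 ± 0.699% (exact permutation p = 0.9), and ATP5MC3 supplied 30.6 ± 0.731% and 28.9 ± 0.737% (exact permutation p = 0.1, adjusted p = 0.2). ATP5S, coupling factor B, had a log2 fold change of -0.27 with an adjusted p of 0.264, the readthrough gene ATP5MF-PTCD1 had 0.060, and ATP5MGL, a copy of ATP5MG, had at most 2 counts.

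**Figure D2:**
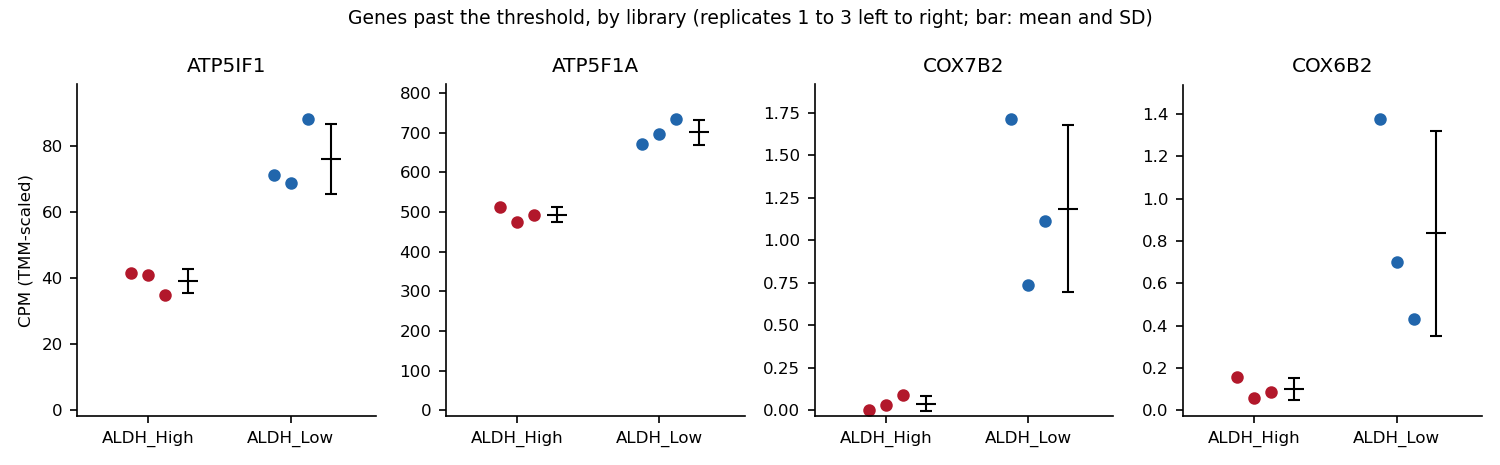
The vertical axes are TMM-scaled CPM, each point is 1 library with replicates 1 to 3 from left to right, and the bars are the mean and SD of 3 libraries. In each of the 4 panels every ALDH_High library lies below every ALDH_Low library, around 35 to 42 CPM against 69 to 88 for ATP5IF1 and under 0.2 CPM against 0.4 or more for COX7B2 and COX6B2. For COX7B2 and COX6B2 that direction was fixed by the filter on low counts.

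Summed over a complex, the nuclear RNA had overlapping groups in all 5 complexes, although the means of complexes III and V differed by more than either SD. Complex I summed to 7610 ± 504 TPM in ALDH_High and 7754 ± 377 in ALDH_Low, and complex II to 689 ± 21.3 and 661 ± 28.7. Complex III had 2722 ± 133 and 2857 ± 107 TPM, complex IV had 5232 ± 438 and 5394 ± 341, and complex V had 7351 ± 364 and 7950 ± 445. ALDH_High replicate 1 had the highest sum of its group for all 5 complexes, and leaving it out raised the number of members called from 4 to 11 of 93, all lower in ALDH_High, in a fit where 23.7% of all genes passed. Among those added by that omission were ATP5MC1, NDUFAF3, NDUFB10, NDUFS8, UQCR10 and UQCRQ. On the log2 CPM scale, the median member of that library lay 0.13 above the mean of the 6 libraries, and the median members of ALDH_High replicates 2 and 3 lay at -0.089 and -0.19. In ALDH_Low the same medians were 0.017, -0.020 and 0.16.

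**Figure D3:**
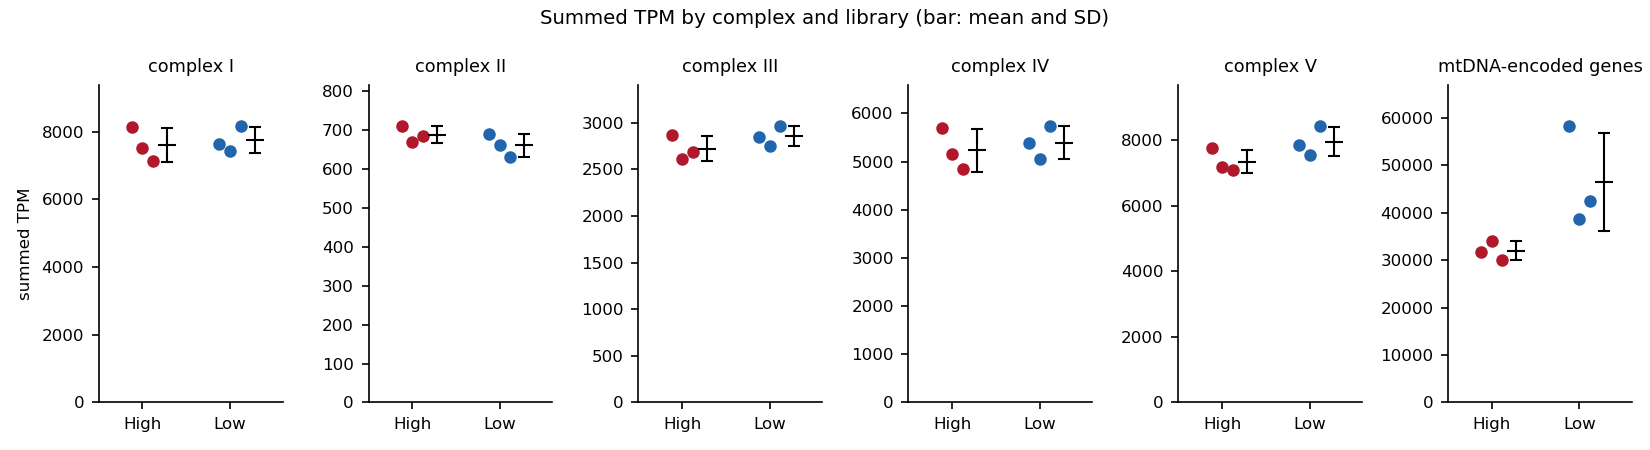
The vertical axes are the summed TPM of the genes of a complex, each point is 1 library, and the bars are the mean and SD of 3 libraries per group. For the 5 nuclear sets the points of the 2 groups overlap, and for the mtDNA-encoded genes the ALDH_Low points, at 38670 to 58300, lie above the ALDH_High points, at 30130 to 34110.

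The subunits encoded by mitochondrial DNA form the membrane-embedded core that the nuclear subunits join. Of these 13 genes 7 passed in edgeR's test, 53.8% against 20.6% of all genes. All 7 were lower in ALDH_High, the direction in which 9.83% of all genes passed. All 13 had a log2 fold change below 0, with a median of -0.63. Their summed level was 32010 ± 1996 TPM in ALDH_High and 46510 ± 10390 TPM in ALDH_Low. MT-ND4, a proton-pumping subunit of complex I, had 2093 ± 286 CPM in ALDH_High and 3539 ± 648 in ALDH_Low (adjusted p = 0.00562, edgeR quasi-likelihood test). MT-ND1, which forms part of the ubiquinone site, had a log2 fold change of -0.70 (adjusted p = 0.00944), and MT-CO2, which accepts electrons from cytochrome c, had -0.90 (adjusted p = 0.0242). The count of 7 varied with the setting, given here with the share of all genes that passed. It was 11 with no filter on low counts (12.9%), 8 with upper-quartile scaling (21.0%) and 8 by DESeq2 (19.5%). Without ALDH_Low replicate 1 (15.8%), ALDH_High replicate 2 (14.4%) or ALDH_High replicate 3 (15.6%) it was 2. It was 4 without ALDH_Low replicate 3 (14.2%), 3 with the length trend removed (20.5%) and 0 by limma on TPM (7.27% to 15.5%). ALDH_Low replicate 1 had the highest mitochondrial sum of all libraries, and without it the median was -0.39 and 11 of the 13 were below 0. With the length trend removed, 12 of the 13 were below 0.

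Genes that build or feed the chain were also largely without calls, where 20.6% of all genes passed, though most of these lists are short. Of 48 assembly factors outside the naming rule, 1 passed (2.08%). COX11, a copper chaperone of complex IV, was higher in ALDH_High by 0.37 on the log2 scale (adjusted p = 0.0478, edgeR), a call that was lost in 11 of 16 alternatives. None of 10 tested genes for electron entry and carriers and none of 13 ubiquinone synthesis genes passed by edgeR's or DESeq2's test. An unadjusted p below 0.05 (edgeR) was found for 0 and 3 of them, against 5508 of all 17047 genes. In the citrate cycle, IDH2, the mitochondrial NADP-dependent isocitrate dehydrogenase, was higher in ALDH_High, at 38.1 ± 4.94 CPM against 16.2 ± 1.56 (log2 fold change 1.23, SE 0.14, adjusted p = 0.000226). It was the only 1 of 14 cycle genes to pass (7.14%).

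Among 18 tested regulators of mitochondrial biogenesis, MYC and TFB1M passed, 11.1% against 20.6% of all genes. MYC, a broad activator of growth genes, was lower in ALDH_High, at 37.1 ± 2.14 CPM against 67.6 ± 14.4 (log2 fold change -0.86, adjusted p = 0.00374). TFB1M, a methyltransferase of mitochondrial ribosomal RNA, was higher at 19.4 ± 2.04 against 13.9 ± 0.959 CPM (log2 fold change 0.48, adjusted p = 0.0371), and this call was lost in 8 of 16 alternatives. PPARGC1A was close to undetected, between 0 and 1.10 CPM. NRF1, GABPA, ESRRA and TFAM, known regulators of nuclear subunit genes and of mitochondrial DNA, had log2 fold changes of -0.090, 0.28, -0.028 and -0.082, none past the threshold.

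The 2 genes of complex V that passed lie in stretches of the genome where most neighbouring genes were also lower. Protein-coding genes that start within 2 Mb of each member were examined, a window chosen after the values were seen, leaving out other members. Around ATP5F1A, 12 of 14 neighbours had a log2 fold change below 0, the median was -0.62, and 7 passed lower against 1 higher. Around ATP5IF1, 42 of 46 were below 0, the median was -0.35, and 17 passed lower against 2 higher. Of all genes tested, protein-coding or not, 51.4% were below 0, 9.83% passed lower and 10.8% passed higher. The median neighbour of ATP5IF1 lay at -0.14, -0.22 and -0.21 in the 3 ALDH_High libraries, relative to the mean of the 6 libraries on the log2 scale, and at 0.13, 0.20 and 0.15 in ALDH_Low. These were the lowest neighbourhood medians of all tested members with at least 5 neighbours.

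**Figure D4:**
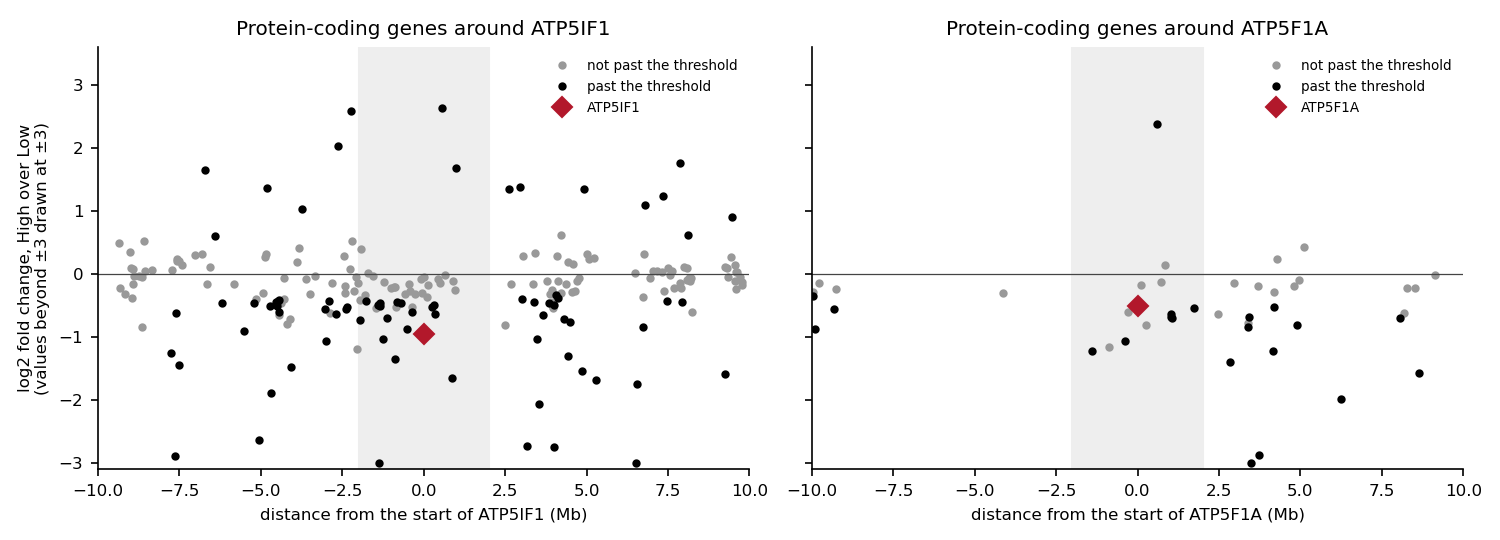
The horizontal axes give the distance in Mb from the start of ATP5IF1 or ATP5F1A, the vertical axis gives the log2 fold change of each protein-coding gene, and shading marks the window of 2 Mb on each side. Within the shading most points lie below 0, with medians of -0.35 around ATP5IF1 and -0.62 around ATP5F1A.

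The highest neighbourhood medians belonged to NDUFAF5 and ATP5F1E, the 2 members with the highest log2 fold changes, both on chromosome 20. Around NDUFAF5 6 of 7 neighbours were above 0 with a median of 0.435, and around ATP5F1E 13 of 15 were above 0 with a median of 0.28. Over the whole of chromosome 20, the median of 356 protein-coding genes was 0.28 and 18.3% were below 0. On chromosome 18, which carries ATP5F1A, the median of 194 genes was -0.23, and on chromosome 1, which carries ATP5IF1, it was -0.018. NDUFV2 also lies on chromosome 18 and had a log2 fold change of 0.13, so not every member there was lower. Its own neighbourhood median was 0.22, with 7 of 11 neighbours above 0. NDUFAF3, COX7B2 and COX6B2 had neighbourhood medians of -0.050, 0.091 and -0.060. Over 90 members with at least 5 neighbours, leaving out COX7B2 and COX6B2, a gene's log2 fold change and its neighbourhood median had a Pearson correlation of 0.56 and a Spearman correlation of 0.33. Without ATP5IF1 and ATP5F1A as well, over 88 members, they were 0.42 and 0.28, and with all 92 members 0.17 and 0.32. The points come from the same 6 libraries, and members that lie close together share neighbours.

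**Figure D5:**
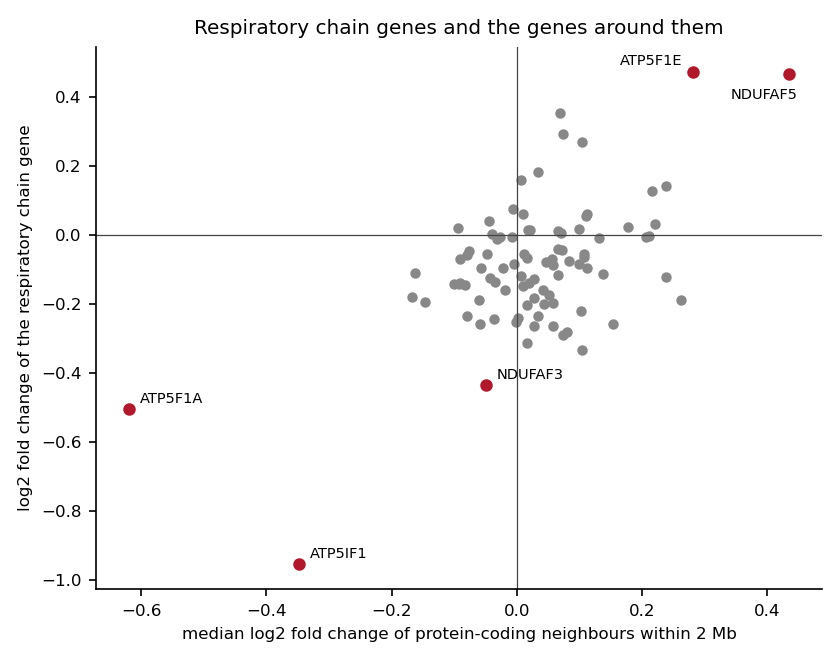
Each point is 1 of 90 members, with the median log2 fold change of its protein-coding neighbours within 2 Mb on the horizontal axis and its own log2 fold change on the vertical axis. ATP5F1A and ATP5IF1 lie at the lower left, at -0.62 and -0.35 on the horizontal axis, and ATP5F1E and NDUFAF5 at the upper right.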

How the data were processed

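Counts and TPM values were deposited by the authors for 57914 genes in 6 libraries. Per the submitters' processing notes, the tools were FastQC 0.11.3, STAR 2.5.1b, HTSeq 0.6.1 and DESeq2, and the build GRCh38; the annotation release is not given in the sources used here. The deposited counts behave as estimated counts rounded to whole numbers, since 133 to 177 genes per library had a count of 0 beside a TPM above 0. The deposited TPM values sum to 1000000 in each library. Design choices assumed raw counts, and the same test was kept.

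The members, the lists and the named genes were chosen with earlier results of these data known. Genes kept by filterByExpr were scaled by TMM and tested with edgeR 4.0.16 (glmQLFTest, R 4.3.3), ALDH_High against ALDH_Low, 3 libraries each, two-sided, with Benjamini-Hochberg adjustment over 17047 genes and a threshold of 0.05. SE is the log2 fold change over the square root of F. CPM uses TMM-scaled totals. Total counts of 26692868 to 37830603 per library put the limit of a count of 0 (3 counts) at 0.0778 to 0.118 CPM; floors and counting intervals (95%, exact) cover counting error only. Levels of a complex are sums of deposited TPM. Named genes were all members past the threshold, the 2 most abundant of each complex, the paralog pairs, untested members and the 3 strongest calls of each other list; further genes were named after their values were seen, among them NDUFAF5, NDUFAF3, ATP5F1E, COX7B and COX6B1, and those at the ends of a range. Gene positions come from GENCODE 44 and promoters from RefSeq (GRCh38.p14). The gene length trend was removed with a smooth curve per library, using the length implied by count and TPM. Alternatives also used limma 3.58.1 and DESeq2 1.42.0. The test was tried on simulated data. Replicate numbers were not treated as pairs. Details on 2 genes are not reported here.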

Additional observations from a re-analysis of the deposited data

How the results depend on the processing

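ATP5IF1 and ATP5F1A passed in all 16 alternative fits, COX7B2 in the 15 that tested it and COX6B2 in 12 of 13. The paralogs passed the filter on low counts only through ALDH_Low, so their repeated calls do not bear on direction. The number of members past the threshold, 4, was 7 with no filter on low counts, 7 by DESeq2's Wald test, 2 with at least 10 counts in every library and 2 where the log2 fold change also had to reach 1 in size; without 1 library it ranged from 4 to 11. Members called higher numbered 1 with no filter (2378 over all genes), 2 by DESeq2 (2133) and 2 with the gene length trend removed (1868). Without 1 library they numbered 0 to 2 (1306 to 2172 over all genes). Members called lower were 2 with at least 10 counts (1372), 2 with the fold limit (954) and 4 to 11 without 1 library (1073 to 2049). With the replicate number as a block, 6 members passed (NDUFAF3 lower and 1, NDUFAF5, higher in addition) and 3748 genes in all, of which 3330 were shared with the 3513. Same-numbered libraries deviated together at correlations of 0.206, 0.159 and 0.0987, each library correlated best with its own number, and the labels do not say what the number marks.

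With the length trend removed, the complex III median stayed below 0, at -0.015. Removing the trend turned the medians to 0.089 for complex I, 0.030 for complex II, 0.047 for complex IV, 0.045 for complex V and 0.070 for all members. It also reversed UQCRH to 0.080, ATP5MF to 0.10, COX4I1 to 0.047, COX8A to 0.17, UQCRQ to 0.076, NDUFB9 to 0.093, NDUFB7 to 0.038, SDHB to 0.0028, COX6A1 to 0.047, ATP5MC2 to 0.041, ATP5MC3 to 0.10 and COX6B1 to 0.047, none of them past the threshold. Upper-quartile scaling put COX7A2 at -0.037. Without 1 library, reversals were seen for ATP5MF (-0.29 to 0.012), COX8A (-0.16 to 0.050), NDUFB9 (-0.20 to 0.020), ATP5MC3 (-0.19 to 0.049) and COX7A2 (-0.16 to 0.126). The cause of these shifts was not tested.

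Over all genes, 2170 passed (1216 higher, 954 lower) by limma on log2(TPM + 0.1), 1930 (1060, 870) at an adjusted p below 0.01 and 1958 (1004, 954) with the fold limit; limma on log2(TPM + 1) called 1038 lower. Without 1 library, 2488 to 4221 passed, 1073 to 2049 of them lower. Depth limits the low paralogs, and counts of 0 allow up to 0.118 CPM.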
